A study of Homo sapiens with 12 samples.

Results

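Ribosome footprints of GIGYF1/2-null cells were compared with those of 4EHP-null cells. The comparison rests on 4 of the 12 libraries of the series, chosen by their labels: the 2 Ribo-seq libraries of each null genotype. Ribo-seq sequences the mRNA fragments that ribosomes protect from nuclease, so that the count of a gene follows both the amount of its mRNA and how densely ribosomes occupy it. All groups were HEK293T, a human embryonic kidney cell line, and were plated for 24 h on 15 cm dishes; the labels name no treatment. By their labels, the 4EHP-null cells lack 4EHP (gene symbol EIF4E2), the GIGYF1/2-null cells lack both GIGYF1 and GIGYF2, and the wild-type cells (WT) carry neither change; the counts of GIGYF2, given below, do not show its loss. The labels do not say how the alleles were made or whether a null line is 1 clone, so a change of the genotype and a change of the line cannot be told apart. They also do not say whether the 2 libraries of a group came from separate cultures, and the p-values thus cover only how far these libraries vary, a variation that may be technical. The 2 WT Ribo-seq libraries entered the shared estimate of the spread and are given as background, and the 6 RNA-seq libraries of the same genotypes gave the mRNA level of each gene.

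4EHP is a relative of the translation factor eIF4E that binds the mRNA cap but does not build an initiation complex. GIGYF1 and GIGYF2 are scaffold proteins that hold 4EHP and connect it to proteins that choose the target mRNAs, among them ZNF598 at collided ribosomes and tristetraprolin (ZFP36) at AU-rich elements, and to the decay factor DDX6 and the CCR4-NOT deadenylase. The complex is known for silencing translation and speeding decay of its targets, so the comparison of the null lines sets the loss of the cap-binding partner against the loss of the scaffolds.

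The Ribo-seq libraries held 6536493 to 10816080 counts and the RNA-seq libraries 26143118 to 38175701 counts, over 27011 genes. Small non-coding RNA genes took 4.19% and 3.32% of the footprint counts in the 4EHP-null libraries, 2.61% and 2.31% in the GIGYF1/2-null libraries and 2.20% and 1.75% in WT. All 8 markers of HEK293T cells were above 1 CPM (counts scaled to a common library total) in every Ribo-seq library. Of the markers of other cells, CD3E and HBB of blood, APOB, TTR, SERPINA1 and FGA of liver, COL1A2 and THY1 of fibroblasts and TP63 of squamous epithelium were at 0 in all 6. In bulk samples, fewer cells that express a gene and less RNA per cell cannot be told apart.

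Of 14722 genes tested, 586 were higher in GIGYF1/2-null than in 4EHP-null footprints (3.98%) and 1001 were lower (6.8%), together 10.8%, by edgeR's quasi-likelihood test at a Benjamini-Hochberg adjusted p under 0.05. A gene past that threshold is said below to be called, and fold changes are GIGYF1/2-null over 4EHP-null on the log2 scale. At least 2-fold changes were reached by 215 of the higher and 358 of the lower genes. The median change of all genes was 0.03. The split between directions moved with the scaling of the libraries: 36.9% of the calls were higher with TMM scaling (trimmed mean of M-values), 34.0% with RLE scaling, 28.7% with DESeq2 and 49.7% with upper-quartile scaling (825 higher and 835 lower). The number of calls also rested on single libraries. It was 431 without 4EHP-null replicate 1, 745 without 4EHP-null replicate 2, 1659 without GIGYF1/2-null replicate 1 and 1043 without GIGYF1/2-null replicate 2; counts for gene lists that leave out a library are given below in this order. Called in each of the 6 fits that left out 1 library, WT included, were 80 of the higher and 227 of the lower genes, and the text marks these as held.

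In mRNA, 1788 of 15637 genes tested were higher (11.4%) and 2032 were lower (13%). The footprint changes mostly had an mRNA change of the same sign beside them. Of 562 genes called higher in footprints and tested in both assays, 451 were called higher in mRNA, 111 were not called and 0 were called lower. Of 923 called lower in footprints, 734 were called lower in mRNA, 186 were not called and 3 were called higher. A test of translation efficiency, the footprint change minus the mRNA change, called 24 of 13257 genes (0.181%). With 2 libraries per genotype and assay, a gene that was not called may still differ between the assays. The plot of footprint against mRNA change shows both groups; in it, the place of genes with 0 counts in 1 line, such as CHRDL1, depends on the small constant that the fit adds.

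**Figure D1:**
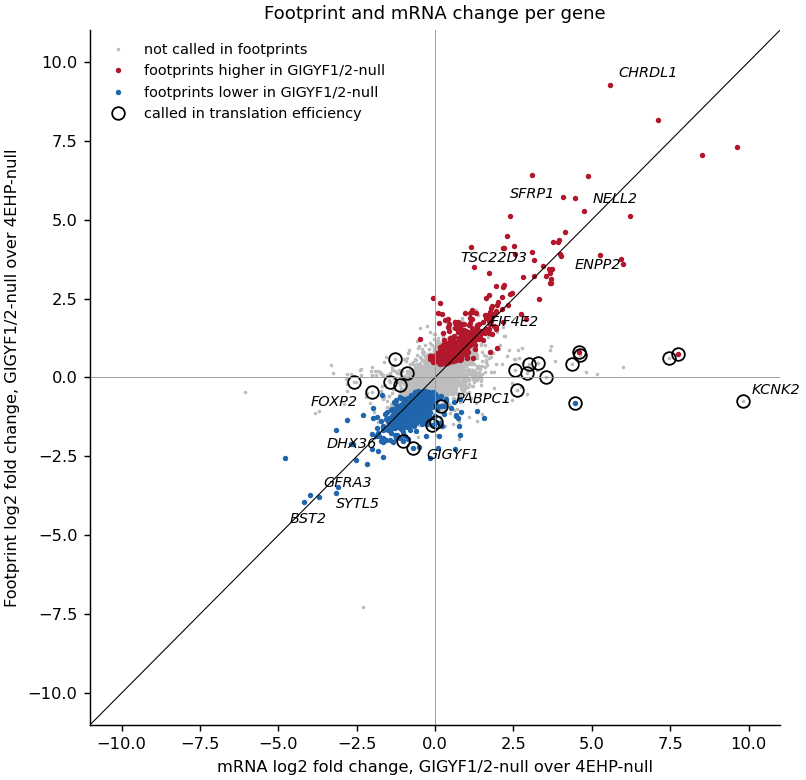
Log2 fold change of footprints (y axis) against that of mRNA (x axis), GIGYF1/2-null over 4EHP-null, for each of the 13257 genes tested in both assays; the line marks equal change. Coloured points are the 562 genes called higher and the 923 called lower in footprints, and circles are the 24 genes called in translation efficiency; most coloured points lie along the line, while KCNK2 lies far to the right of it.

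The genes that were targeted came first. EIF4E2, which encodes 4EHP, had 16.8 and 12.1 CPM in the 4EHP-null libraries, 40.4 and 35.8 CPM in the GIGYF1/2-null libraries and 38.1 and 33.5 CPM in WT. Its footprints were thus low only in the 4EHP-null libraries, and they were higher in GIGYF1/2-null by 1.40 ± 0.18 (SE; edgeR adjusted p = 9.8e-04). Footprints of GIGYF1 were 9.45 and 12.3 CPM in 4EHP-null, 1.70 and 2.74 CPM in GIGYF1/2-null and 8.69 and 6.72 CPM in WT, a change of -2.25 ± 0.28 (SE; edgeR adjusted p = 9.8e-04). The GIGYF1/2-null libraries were below all the others, and both calls held. GIGYF1 mRNA fell by less, with a log2 change of -0.69 ± 0.11 (adjusted p = 6.2e-04), and its translation efficiency changed by -1.57 ± 0.29 (SE; edgeR adjusted p = 0.039), a call made in 3 of the 12 fits that left out a library. GIGYF2 had 110.2 and 86.2 CPM in 4EHP-null, 81.6 and 51.7 CPM in GIGYF1/2-null and 90.8 and 63.9 CPM in WT. The null lines did not overlap, but GIGYF1/2-null overlapped WT. The change of GIGYF2 footprints, -0.56 ± 0.22 (SE; edgeR adjusted p = 0.14), did not pass the threshold, although it did without GIGYF1/2-null 1 (adjusted p = 0.012), and also in the fits without the filter and with a replicate block. GIGYF2 mRNA had 68 and 68.8 CPM in 4EHP-null, 96.7 and 81.8 CPM in GIGYF1/2-null and 81.2 and 66.1 CPM in WT, and was higher in GIGYF1/2-null than in 4EHP-null by 0.38 ± 0.11 (adjusted p = 0.022). A count over the whole gene does not show where an allele ends translation, so the GIGYF2 counts do not check that allele. ZNF598, the ubiquitin ligase of collided ribosomes that recruits the complex, had 35.3 and 37.2 CPM in 4EHP-null and 40.5 and 38.5 CPM in GIGYF1/2-null, a difference of 0.12 ± 0.14 (SE; edgeR adjusted p = 0.64).

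The 15 tested genes of the complex and its partners had a median of -0.31. Among them 1 rose (EIF4E2, 6.67%) and 3 fell (20%), beside 3.98% and 6.8% of all genes. Beside GIGYF1 these were DDX6, the helicase of the decay machinery, at -0.48 ± 0.13 (SE; edgeR adjusted p = 0.036, but 0.057 to 0.19 without 1 of 4EHP-null 1, 4EHP-null 2, GIGYF1/2-null 2, WT 1 or WT 2), and PRRC2C, a large GIGYF-associated translation factor. PRRC2C had 484 and 416 CPM in 4EHP-null, 279.8 and 149 CPM in GIGYF1/2-null and 386 and 331 CPM in WT. Its change was -1.07 ± 0.24 (SE; edgeR adjusted p = 0.015, but 0.11 without 4EHP-null 1), and the 2 GIGYF1/2-null libraries stood far apart. Lower members numbered 1, 2, 7 and 2 in the fits that left out a library.

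Interferon-stimulated genes, whose products detect or block viruses, moved in both directions. Of 38 tested, 4 were higher and 4 were lower, the same share in each direction (10.5%), beside 3.98% and 6.8% of all genes. The median was 0.13. BST2, the tetherin that holds budding virus at the cell surface, had the largest decrease of all genes named by the rule. It had 73.2 and 74.1 CPM in 4EHP-null, 4.61 and 4.95 CPM in GIGYF1/2-null and 3.04 and 4.26 CPM in WT, so that the 4EHP-null libraries alone were high. The change was -3.94 ± 0.17 (SE; edgeR adjusted p = 6.6e-07), with mRNA at -4.17 ± 0.13 (adjusted p = 1.7e-09), and it held. IFIH1, which encodes the RNA sensor MDA5, had 4.88 and 5.18 CPM in 4EHP-null, 15.2 and 14.2 CPM in GIGYF1/2-null and 1.88 and 2.46 CPM in WT, a change of 1.54 ± 0.21 (SE; edgeR adjusted p = 0.0013) that held. For this sensor the order was WT lowest and GIGYF1/2-null highest, without overlap. OAS3, a synthetase that activates RNase L, followed the same order with 9.13 and 10.1 CPM, 23.8 and 18.3 CPM and 4.64 and 3.69 CPM, a change of 1.12 ± 0.20 (SE; edgeR adjusted p = 0.0050, but 0.058 without 4EHP-null 1).

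The remaining interferon genes called were IFIT5 (0.61 ± 0.15) and IRF7 on the higher side and SAMD9 (-1.10 ± 0.27), ZC3HAV1 (-0.95 ± 0.20) and IFIT1 (-0.93 ± 0.27) on the lower side. IRF7, an interferon regulatory factor, had 0 counts in both 4EHP-null libraries and 1.46 and 1.06 CPM in GIGYF1/2-null, at least 2.86-fold higher over a floor of 3 counts per library. ZC3HAV1, the antiviral zinc finger protein ZAP, lies in a run of neighbouring genes on chromosome 7 with a low median, described at the end. Higher members numbered 1, 2, 3 and 4 and lower members 1, 2, 5 and 2 in the fits that left out a library. The interferon response element that such promoters carry was looked for as GAAA, any 2 bases and GAAA on both strands, any overlap allowed, in the 250 bases before to 50 bases after each start in the RefSeq promoter table (GRCh38.p14). It was present in 3.65% of all 27305 promoters, in 19 of the 33 list members with an entry, and in 6 of the 7 called members with an entry. ZC3HAV1 had no match. The stretch around the match nearest to the start is shown for the 6 genes, 5′ to 3′ on the strand of the gene, with matches in capitals (read as TTTC, 2 bases and TTTC where the match is on the opposite strand), since genes that rose and genes that fell carry the same letters.
BST2: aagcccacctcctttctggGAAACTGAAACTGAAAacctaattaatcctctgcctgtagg
SAMD9: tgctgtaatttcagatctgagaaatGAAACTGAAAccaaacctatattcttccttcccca
IFIT1: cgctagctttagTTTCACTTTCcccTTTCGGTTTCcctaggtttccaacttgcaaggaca
IFIH1: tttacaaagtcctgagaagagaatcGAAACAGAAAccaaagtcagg
OAS3: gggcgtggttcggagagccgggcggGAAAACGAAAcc
IFIT5: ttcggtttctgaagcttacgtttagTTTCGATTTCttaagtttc
The first 3 genes fell and the last 3 rose. The stretches lie at chr19:17405720-17405779 (minus strand), chr7:93118081-93118140 (minus strand), chr10:89392495-89392554 (plus strand), chr2:162318685-162318730 (minus strand), chr12:112938437-112938473 (plus strand) and chr10:89414524-89414567 (plus strand). BST2 holds 2 overlapping matches. IFIT1 and IFIT5 lie close together on chromosome 10, and their footprints changed in opposite directions. A match describes these letters only, and binding was not measured.

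The 12 largest decreases named by the rule were genes whose WT level lay nearer to GIGYF1/2-null (5 of the 12, BST2 among them) or nearer to 4EHP-null. In the first kind, GPC3, a cell-surface heparan sulfate proteoglycan encoded on the X chromosome, had 337 and 363 CPM in 4EHP-null, 53.9 and 59.98 CPM in GIGYF1/2-null and 68.2 and 79.5 CPM in WT. Its change was -2.62 ± 0.14 (SE; edgeR adjusted p = 2.0e-06). GFRA3, a receptor for artemin, had 10.1 and 15.5 CPM in 4EHP-null against 0.849 and 1.06 CPM in GIGYF1/2-null and 1.01 and 0.662 CPM in WT, a change of -3.71 ± 0.33 (SE; edgeR adjusted p = 8.7e-05). EDIL3, a secreted integrin ligand, had the same shape, with 15.3 and 13.4 CPM, 2.79 and 4.33 CPM and 3.91 and 3.97 CPM in that order and a change of -1.97 ± 0.24 (SE; edgeR adjusted p = 7.2e-04). PGBD3, a gene derived from a transposase, had 10.6 and 6.54 CPM in 4EHP-null, 1.58 and 1.77 CPM in GIGYF1/2-null and 2.32 and 2.46 CPM in WT, a change of -2.32 ± 0.31 (SE; edgeR adjusted p = 0.0013). It overlaps ERCC6, from which the counts may not separate it, and lies in a run of neighbouring genes with a low median. GIGYF1/2-null overlapped WT for GFRA3 and EDIL3 and lay below it for GPC3 and PGBD3, and the calls held.

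In the second kind, DHX36, a helicase that unwinds G-quadruplexes, had 119 and 103 CPM in 4EHP-null, 30.1 and 25.6 CPM in GIGYF1/2-null and 99.1 and 92.6 CPM in WT. Its footprint change was -2.0 ± 0.15 (SE; edgeR adjusted p = 2.6e-05), its mRNA change -1.03 ± 0.11 (adjusted p = 3.1e-05) and its translation efficiency change -0.99 ± 0.17 (SE; edgeR adjusted p = 0.033). PUM3, a nucleolar Pumilio-family protein of ribosome assembly, had 60.5 and 52.5 CPM in 4EHP-null, 18.4 and 9.73 CPM in GIGYF1/2-null and 46.1 and 44 CPM in WT, and its change was -2.03 ± 0.23 (SE; edgeR adjusted p = 5.4e-04). The 2 GIGYF1/2-null libraries stood apart from each other for this gene but were below all others. PUM3 lies on chromosome 9 outside its run of lower genes, and whether it changed with its neighbours was not tested. SYTL5, a synaptotagmin-like vesicle protein on the X chromosome, had 9.92 and 11.6 CPM in 4EHP-null, 0.728 and 0.796 CPM in GIGYF1/2-null and 5.07 and 4.35 CPM in WT, a change of -3.79 ± 0.30 (SE; edgeR adjusted p = 3.7e-05). COL3A1, a fibrillar collagen, followed with 6.14 and 8.04 CPM, 1.46 and 1.77 CPM and 4.06 and 3.97 CPM and a change of -2.12 ± 0.29 (SE; edgeR adjusted p = 0.0013). WT lay between the null lines for both. PARP4 (-2.52 ± 0.15) and MPDZ (-1.99 ± 0.21) completed the 12 with GIGYF1, and both lie, like PGBD3, in runs of neighbouring genes with low medians, described at the end. The calls of this second kind held as well.

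The 12 largest increases were mostly genes that were low in 4EHP-null, while WT lay nearer to GIGYF1/2-null for 9 of the 12. CHRDL1, a secreted antagonist of BMP signalling, had 0 counts in both 4EHP-null libraries, 8.73 and 9.55 CPM in GIGYF1/2-null and 1.16 and 1.70 CPM in WT. It was at least 20.8-fold higher in GIGYF1/2-null over a floor of 3 counts per library (edgeR adjusted p = 4.7e-05). SFRP1, a secreted Wnt antagonist, had 0.157 and 0.136 CPM in 4EHP-null, 8.01 and 8.49 CPM in GIGYF1/2-null and 5.07 and 4.92 CPM in WT. The ratio of its counts, GIGYF1/2-null over 4EHP-null and scaled to library size, was 56.7 (95% exact counting interval 15.5 to 472). Both secreted antagonists were close to absent from 4EHP-null footprints and present in the other lines. NELL2, a secreted neuronal glycoprotein, had 0.472 and 0.954 CPM in 4EHP-null, 26.6 and 31.2 CPM in GIGYF1/2-null and 13 and 12.6 CPM in WT, a change of 5.28 ± 0.28 (SE; edgeR adjusted p = 1.9e-06).

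The most abundant of the 12 was GLA, the lysosomal alpha-galactosidase A. GLA had 67.9 and 81.1 CPM in 4EHP-null, 668 and 702 CPM in GIGYF1/2-null and 323 and 334 CPM in WT, a change of 3.20 ± 0.15 (SE; edgeR adjusted p = 7.4e-07), so that WT lay between the null lines. TSC22D3, the glucocorticoid-induced leucine zipper, had 4.72 and 6.40 CPM in 4EHP-null, 58.9 and 72.2 CPM in GIGYF1/2-null and 35.6 and 48 CPM in WT, a change of 3.55 ± 0.22 (SE; edgeR adjusted p = 5.4e-06). ALDH1A2, which makes retinoic acid, had 1.10 and 2.04 CPM in 4EHP-null, 17.5 and 17.8 CPM in GIGYF1/2-null and 13.3 and 14.4 CPM in WT, a change of 3.45 ± 0.26 (SE; edgeR adjusted p = 2.6e-05). These genes were low in both 4EHP-null libraries and above WT in both GIGYF1/2-null libraries. SATB1, a chromatin organiser, showed 2.20 and 0.954 CPM, 14.1 and 12.8 CPM and 8.40 and 9.65 CPM, in the same order, with a change of 3.11 ± 0.30 (SE; edgeR adjusted p = 1.6e-04). ENPP2, the enzyme autotaxin that makes lysophosphatidic acid, was the reverse case. It had 1.57 and 1.64 CPM in 4EHP-null, 23.2 and 25.1 CPM in GIGYF1/2-null and 2.90 and 2.18 CPM in WT, so that the GIGYF1/2-null libraries alone were high, with a change of 3.90 ± 0.24 (SE; edgeR adjusted p = 5.3e-06). The others were BEX5 (4.29 ± 0.47), SP110 (3.99 ± 0.45), PCDH19 (3.31 ± 0.39) and GALNT14 (2.99 ± 0.32), and all 12 calls held.

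**Figure D2:**
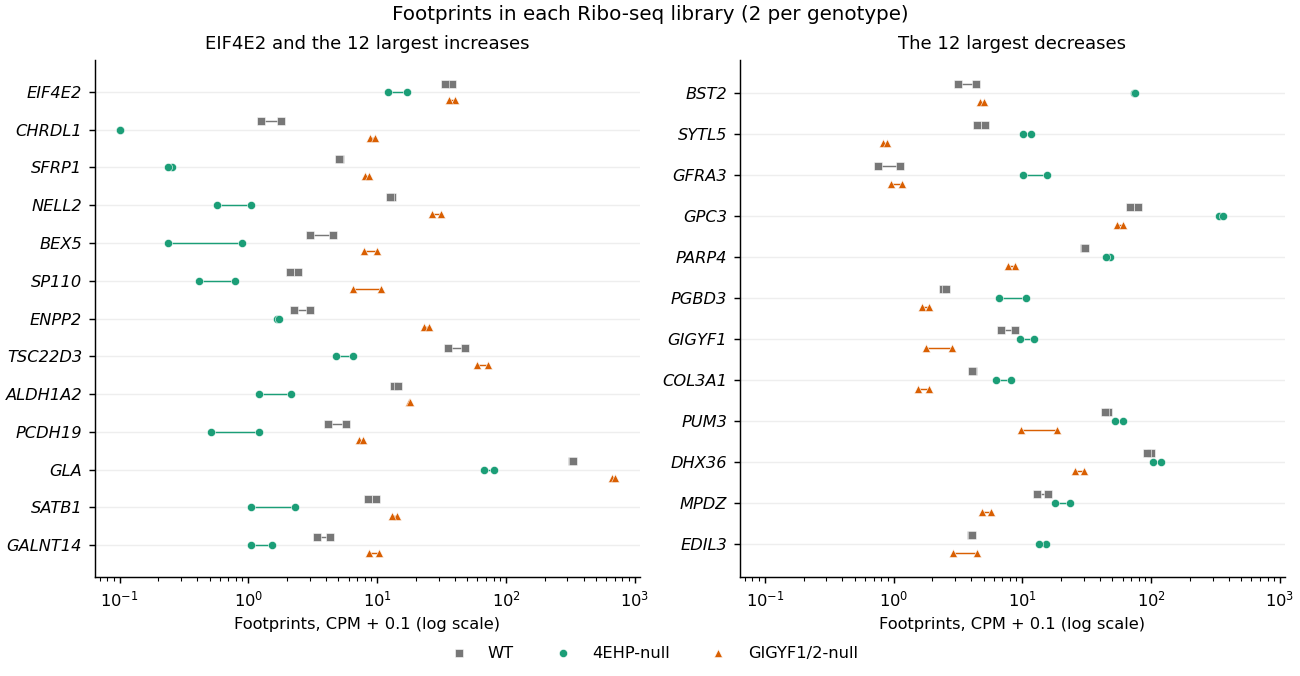
Footprints per library, as CPM plus 0.1 on a log scale (x axis), for EIF4E2, the 12 largest increases (left) and the 12 largest decreases (right) named by the rule; each symbol is 1 library and lines join the 2 libraries of a genotype. The null lines do not overlap for any gene drawn, and the WT squares lie near GIGYF1/2-null for genes such as SFRP1 and GFRA3 and near 4EHP-null for genes such as ENPP2 and DHX36.

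The libraries of the null lines did not overlap for 53.9% of all genes tested, and the rule that named the genes above took only such genes. Over all called genes, the position of WT differed between the directions. WT was nearer to GIGYF1/2-null than to 4EHP-null, on the log2 scale, for 404 of the 586 higher genes and for 402 of the 1001 lower genes. It was nearer to 4EHP-null for the other 182 and 599. For 452 of the higher and 809 of the lower genes WT lay between the null lines. WT was not tested against either line here.

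Of the machinery that loads ribosomes, a list of eIF4E, 4E-binding, eIF4G and poly(A)-binding genes had more decreases than increases. Of 13 tested members, 4 fell (30.8%, beside 6.8% of all genes) and 1 rose, with a median of -0.16. The 4 were EIF4G1 and EIF4G3, scaffolds of the initiation complex, and the poly(A)-binding proteins PABPC1 and PABPC4. EIF4G1 had 488 and 443 CPM in 4EHP-null, 269 and 133 CPM in GIGYF1/2-null and 350.3 and 239.6 CPM in WT, a change of -1.21 ± 0.27 (SE; edgeR adjusted p = 0.016, but 0.11 without 4EHP-null 1 and 0.059 without 4EHP-null 2). PABPC1 had 520.1 and 439.6 CPM in 4EHP-null, 291 and 220.3 CPM in GIGYF1/2-null and 391 and 359.8 CPM in WT, a change of -0.91 ± 0.16 (SE; edgeR adjusted p = 0.0056, but 0.059 without 4EHP-null 1). For both genes 4EHP-null was above WT; GIGYF1/2-null was below WT for PABPC1 and overlapped it for EIF4G1. EIF4G3 and PABPC4 had changes of -1.12 ± 0.23 (SE; edgeR adjusted p = 0.011, but 0.10 without 4EHP-null 1) and -0.62 ± 0.16 (SE; edgeR adjusted p = 0.031, but 0.087 to 0.18 without 1 of 4EHP-null 1, 4EHP-null 2 or GIGYF1/2-null 2). Lower members numbered 0, 2, 5 and 3 in the fits that left out a library, and no call of the list held without 4EHP-null replicate 1. EIF4EBP2, a repressor of eIF4E, rose by 0.57 ± 0.16 (SE; edgeR adjusted p = 0.039, but 0.059 to 0.27 without 1 of 4EHP-null 1, 4EHP-null 2, GIGYF1/2-null 2, WT 1 or WT 2) and lies in a run of higher genes on chromosome 10. Among 33 other initiation factors, 3 fell (9.09%): EIF5B, which joins the subunits (-1.49 ± 0.38), EIF3C (-0.99 ± 0.25), whose reads a near-identical copy can share, and the helicase DHX29 (-0.94 ± 0.19). None rose by edgeR (2 at an unadjusted p under 0.05, 0 by DESeq2 and 0 by limma-voom), and the lower members numbered 0, 2, 5 and 1 in the fits that left out a library.

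Ribosome rescue factors and nonsense-mediated decay factors also had more decreases than increases. Of 28 collision and rescue genes, 5 fell (17.9%, beside 6.8% of all genes) and 1 rose (3.57%, beside 3.98%), with a median of -0.20. LTN1, the ligase that marks stalled nascent chains, had 91.8 and 93.2 CPM in 4EHP-null, 52 and 48.6 CPM in GIGYF1/2-null and 49.7 and 57.6 CPM in WT, a change of -0.88 ± 0.14 (SE; edgeR adjusted p = 0.0027) that held. WT and GIGYF1/2-null values of LTN1 overlapped and 4EHP-null stood above both. VCP, the segregase that extracts them, had 602 and 608 CPM in 4EHP-null, 358 and 229 CPM in GIGYF1/2-null and 544 and 478 CPM in WT, and its change of -1.05 ± 0.19 (SE; edgeR adjusted p = 0.0060) held. NEMF (-0.98 ± 0.19), TRIP4 (-0.64 ± 0.16) and ASCC3 (-0.62 ± 0.14) were the other decreases, and NPLOC4, a cofactor of VCP, rose by 0.65 ± 0.13 (SE; edgeR adjusted p = 0.0097, but 0.10 without 4EHP-null 1) within a run of higher genes on chromosome 17. Lower members numbered 2, 4, 9 and 3 in the fits that left out a library. Of 20 nonsense-mediated decay factors, 4 fell (20%, beside 6.8% of all genes). They were UPF1 (-0.60 ± 0.17), UPF2 (-0.91 ± 0.18), SMG6 (-0.74 ± 0.20) and GSPT2 (-0.92 ± 0.24), a close copy of GSPT1. GSPT2 had 11.3 and 11.3 CPM of footprints in 4EHP-null and 7.52 and 4.69 CPM in GIGYF1/2-null but 0 RNA-seq counts in all 6 libraries, so which gene these footprints belong to is uncertain. No factor of that list rose by edgeR (1 at an unadjusted p under 0.05, 0 by DESeq2 and 0 by limma-voom), and the decreases numbered 0, 1, 6 and 1 in the fits that left out a library.

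Of 39 deadenylation, decapping and 5′ decay factors, 2 fell (5.13%), near the share over all genes. They were CNOT4, a ligase tied to the CCR4-NOT complex (-0.99 ± 0.16, in the chromosome 7 run), and NANOS1, with a change of -1.11 ± 0.31 (SE; edgeR adjusted p = 0.040, but 0.063 to 0.33 without 1 of 4EHP-null 1, GIGYF1/2-null 1 or GIGYF1/2-null 2). The 2 became 1, 2, 1 and 1 in the fits that left out a library. The median of the list was -0.03, and 0.04 with upper-quartile scaling. None rose by edgeR (2 at an unadjusted p under 0.05, 0 by DESeq2 and 0 by limma-voom). Of 14 microRNA pathway genes, 0 were called by edgeR in either direction. At an unadjusted p under 0.05, 2 were higher and 2 lower, and DESeq2 and limma-voom called 0.

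Translation efficiency was called higher for 6 genes (0.0453%) and lower for 18 (0.136%). PABPC1 was among the lower ones. Its mRNA had 821 and 779 CPM in 4EHP-null, 975 and 857 CPM in GIGYF1/2-null and 1017 and 924 CPM in WT, a change of 0.20 ± 0.09 (adjusted p = 0.15) that was not called, while its footprints fell, as above. The efficiency change was -1.12 ± 0.20 (SE; edgeR adjusted p = 0.038), called in 2 of the 12 fits that left out a library. CTC1, a subunit of the telomere CST complex, had 399.8 and 295 CPM of footprints in 4EHP-null, 112 and 131 CPM in GIGYF1/2-null and 65.1 and 56.9 CPM in WT. Its mRNA was 20.9 and 19.6 CPM, 19 and 18.5 CPM and 14.7 and 13.6 CPM in that order. The footprint counts of 4EHP-null thus stood out at a nearly level mRNA. A count over the whole gene does not show which part of CTC1 these reads cover, or whether an overlapping gene shares them. Whether they are footprints of its coding sequence is thus uncertain. The change of efficiency, -1.41 ± 0.19 (SE; edgeR adjusted p = 0.0056), was called in all 12 fits that left out a library.

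Several of the large efficiency changes were those of genes whose mRNA changed by far more than their footprints. NRXN3, a synaptic adhesion protein, had mRNA at 0.306 and 0.305 CPM in 4EHP-null and 6.96 and 8.07 CPM in GIGYF1/2-null, beside footprints of 6.77 and 7.36 CPM and 12.5 and 12.4 CPM. The NRXN3 footprints were thus well above 0 in 4EHP-null where its mRNA was low, and the efficiency change was -3.80 ± 0.35 (SE; edgeR adjusted p = 1.1e-04). TRIM58 had an efficiency change of -3.95 ± 0.44 (SE; edgeR adjusted p = 7.8e-04) and SLC5A5, the iodide transporter, one of -3.92 ± 0.40 (SE; edgeR adjusted p = 3.1e-04), both with the same shape. These 3 genes were called in all 12 fits that left out a library. In the other direction were the transcription factor FOXP2, at 1.55 ± 0.28 (SE; edgeR adjusted p = 0.040), and the chromatin remodeller SMARCA2, at 1.28 ± 0.19 (SE; edgeR adjusted p = 0.014). MLLT3, a subunit of the super elongation complex, changed by 1.01 ± 0.17 (SE; edgeR adjusted p = 0.030), and the kinase gene DGKH by 0.87 ± 0.16 (SE; edgeR adjusted p = 0.047). The mRNA of these 4 genes was lower in GIGYF1/2-null while the change of their footprints was not called, and FOXP2, MLLT3 and DGKH lie in runs of neighbouring genes that had low medians in both assays. SMARCA2 kept its call in 9 of the 12 fits, MLLT3 in 6, and FOXP2 and DGKH in 1 each.

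The calls among genes of the integrated stress response, which the factor ATF4 switches on when amino acids are short, were all decreases. Of 40 tested, 10 fell (25%, beside 6.8% of all genes) and 33 lay below 0, with a median of -0.28. None rose by edgeR (2 at an unadjusted p under 0.05, 0 by DESeq2 and 0 by limma-voom). In mRNA, 24 of the 40 were called lower. ASNS, asparagine synthetase, had 379 and 336 CPM in 4EHP-null, 206 and 170.5 CPM in GIGYF1/2-null and 266 and 267 CPM in WT, a change of -0.93 ± 0.14 (SE; edgeR adjusted p = 0.0026) that held. Here 4EHP-null lay above WT and GIGYF1/2-null below it. SLC7A1, an arginine transporter, had 184 and 206 CPM in 4EHP-null, 91.6 and 103 CPM in GIGYF1/2-null and 191 and 212 CPM in WT, a change of -1.0 ± 0.14 (SE; edgeR adjusted p = 0.0013) that held; it lies in the run of lower genes on chromosome 13. CTH, which makes cysteine (-0.90 ± 0.14, held), the lipoprotein receptor VLDLR (-1.93 ± 0.33, held), the glycine transporter SLC6A9 (-1.2 ± 0.24), NUPR1 (-2.12 ± 0.48), ATF3 (-0.76 ± 0.18), the synthetase EPRS (-0.64 ± 0.15), SHMT2 (-0.53 ± 0.14) and SLC38A2 (-0.54 ± 0.15) were the other decreases. The lower members numbered 8, 4, 10 and 7 in the fits that left out a library.

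The ATF4 element was looked for as TGATGNAA in the same promoter windows, on both strands with any overlap. It was in 3.67% of all promoters, in 8 of the 32 list members with an entry and in 3 of the 8 called ones with an entry. It is shown for the 2 called genes with a match before the start, in capitals.
ASNS: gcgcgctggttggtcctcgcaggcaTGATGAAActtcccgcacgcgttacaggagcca
ATF3: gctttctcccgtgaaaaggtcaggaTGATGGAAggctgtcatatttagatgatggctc
The stretches lie at chr7:97872444-97872501 (minus strand) and chr1:212565191-212565248 (plus strand) of GRCh38.p14. CTH, EPRS, SLC38A2, SLC6A9 and VLDLR had no match in this window.

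Aminoacyl-tRNA synthetases, which charge tRNAs with their amino acids, likewise had decreases only. Of 23 tested, 7 fell (30.4%, beside 6.8% of all genes) and 20 lay below 0, with a median of -0.28. LARS for leucine had 324 and 236 CPM in 4EHP-null, 184 and 127 CPM in GIGYF1/2-null and 277 and 226 CPM in WT, a change of -0.85 ± 0.20 (SE; edgeR adjusted p = 0.020, but 0.19 without 4EHP-null 1 and 0.084 without GIGYF1/2-null 2). QARS for glutamine had 173 and 189 CPM in 4EHP-null, 125 and 97 CPM in GIGYF1/2-null and 148 and 127 CPM in WT, a change of -0.70 ± 0.15 (SE; edgeR adjusted p = 0.014, but 0.064 to 0.087 without 1 of 4EHP-null 1, 4EHP-null 2 or GIGYF1/2-null 2). The null lines did not overlap for either gene. TARS, EPRS, VARS, NARS and DARS fell by 0.71, 0.64, 0.62, 0.55 and 0.50 on the log2 scale. None rose by edgeR (0 at an unadjusted p under 0.05, 0 by DESeq2 and 0 by limma-voom). The calls rested on single libraries: they numbered 0, 2, 9 and 0 in the fits that left out a library.

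Of 32 cholesterol and fatty acid synthesis genes, 6 fell (18.8%, beside 6.8% of all genes), with a median of -0.19. HMGCS1, which makes HMG-CoA, had 172 and 193 CPM in 4EHP-null, 84.7 and 79 CPM in GIGYF1/2-null and 132 and 154 CPM in WT, a change of -1.16 ± 0.14 (SE; edgeR adjusted p = 6.7e-04) that held. ACLY, which supplies acetyl-CoA, had 838 and 969 CPM in 4EHP-null, 510.1 and 379.6 CPM in GIGYF1/2-null and 692 and 628 CPM in WT, a change of -1.02 ± 0.17 (SE; edgeR adjusted p = 0.0036) that also held. WT lay between the null lines for both. Other decreases were those of ACACA, LSS and HSD17B7, by 0.74, 0.58 and 0.55. None rose by edgeR (1 at an unadjusted p under 0.05, 0 by DESeq2 and 0 by limma-voom), and the lower members numbered 3, 2, 6 and 5 in the fits that left out a library. Of 27 chaperones, 2 fell (7.41%, near the 6.8% of all genes): HSPH1 (-1.2 ± 0.24, in the chromosome 13 run) and HSP90AB1 (-0.70 ± 0.20). Their number moved when a library was left out. Of 27 genes of the unfolded protein response, 3 fell and 1 rose, which was SEL1L, at 0.49 ± 0.14 (SE; edgeR adjusted p = 0.049, but 0.078 to 0.25 without 1 of 4EHP-null 1, 4EHP-null 2, GIGYF1/2-null 2, WT 1 or WT 2); DESeq2 gave SEL1L an adjusted p of 0.098. The 3 decreases were 11.1% of that list, beside 6.8% of all genes, and the 1 increase 3.7%, beside 3.98%. Those that fell were CREB3L2 (-0.80 ± 0.14) and PDIA4 (-0.47 ± 0.13), both in runs of lower genes on chromosome 7, and SEC24D (-0.62 ± 0.15). Lower members of that list numbered 1, 0, 2 and 1 and higher members 0, 0, 1 and 0 in the fits that left out a library.

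DNA replication genes had far more decreases than increases. Of 44 G1/S and replication genes, 14 fell (31.8%, beside 6.8% of all genes). Another 2 rose (4.55%, near the 3.98% of all genes), and the median was -0.17. MCM2, a subunit of the replicative helicase, had 209.6 and 183 CPM in 4EHP-null, 71 and 41.4 CPM in GIGYF1/2-null and 128 and 93.8 CPM in WT, a change of -1.81 ± 0.23 (SE; edgeR adjusted p = 9.8e-04). POLA1, the catalytic subunit of the primase polymerase on the X chromosome, had 116 and 96.9 CPM in 4EHP-null, 46 and 35.4 CPM in GIGYF1/2-null and 56.1 and 49.95 CPM in WT, a change of -1.39 ± 0.16 (SE; edgeR adjusted p = 6.3e-04). For both genes 4EHP-null lay above WT and GIGYF1/2-null below it, and the calls held. MCM4, MCM5, MCM6 and MCM7 fell by 0.73, 0.68, 0.54 and 0.68, and ORC1, RRM1, RFC1, LIG1, POLE, POLD1, POLA2 and RFC3 by 1.13, 1.07, 0.99, 0.81, 0.77, 0.64, 0.62 and 0.55. The 2 increases were cyclin and kinase genes. CCND1, cyclin D1, had 16.7 and 19.9 CPM in 4EHP-null, 48.5 and 47.1 CPM in GIGYF1/2-null and 17.2 and 18.5 CPM in WT, a change of 1.38 ± 0.15 (SE; edgeR adjusted p = 3.2e-04) that held, with WT at the 4EHP-null level. CDK6, its partner kinase, rose by 0.78 ± 0.17 (SE; edgeR adjusted p = 0.015, but 0.15 without 4EHP-null 1). Lower members numbered 6, 6, 15 and 7 in the fits that left out a library.

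Of 33 mitotic genes, 7 fell (21.2%, beside 6.8% of all genes) and 1 rose (3.03%, beside 3.98%), with a median of -0.15. ANLN, the anillin of the cleavage furrow, had 161 and 137 CPM in 4EHP-null, 78.8 and 55.8 CPM in GIGYF1/2-null and 124 and 106 CPM in WT, a change of -1.15 ± 0.17 (SE; edgeR adjusted p = 0.0024) that held. TTK, a checkpoint kinase, changed by -1.0 ± 0.15 (SE; edgeR adjusted p = 0.0023) and held. INCENP, TOP2A, TPX2, KIF2C and BUB1B fell by 1.2, 0.97, 0.93, 0.67 and 0.63. CENPA, the centromeric histone, went the other way, with 5.35 and 8.86 CPM in 4EHP-null, 16.6 and 20.3 CPM in GIGYF1/2-null and 12.3 and 13.4 CPM in WT, with a change of 1.37 ± 0.23 (SE; edgeR adjusted p = 0.0037). Lower members numbered 3, 4, 9 and 3 in the fits that left out a library. Replication-dependent histones, whose copies share reads and are uncertain one by one, had 4 of 69 called higher (5.8%, beside 3.98% of all genes). Their median was 0.19, and 59 of 69 lay above 0. None fell by edgeR (1 at an unadjusted p under 0.05, 0 by DESeq2 and 0 by limma-voom), and the higher members numbered 0, 5, 1 and 3 in the fits that left out a library. In mRNA, where 31 histones were tested, their median was -1.36, with 3 called higher and 2 lower. HIST1H1D had 371 and 487 CPM in 4EHP-null, 709 and 676 CPM in GIGYF1/2-null and 409 and 467 CPM in WT, a change of 0.69 ± 0.16 (SE; edgeR adjusted p = 0.018, but 0.15 without 4EHP-null 1). Of 26 p53 targets tested, 2 rose (7.69%, beside 3.98% of all genes), PLK2 (1.42 ± 0.35) and TP53I3 (0.66 ± 0.17). The 1 decrease, XPC (-1.0 ± 0.24), was 3.85% of the list, beside 6.8% of all genes, and the median was 0.04. These calls rested on single libraries: higher p53 targets numbered 0, 1, 0 and 3 and lower ones 1, 0, 1 and 0 in the fits that left out a library, and DESeq2 called 0 higher and 1 lower.

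The calls among neuronal genes were all increases. Of 17 tested neuronal and intermediate filament genes, 5 rose (29.4%, beside 3.98% of all genes), with a median of 0.23. NEFM, the medium neurofilament chain, had 31.3 and 23.4 CPM in 4EHP-null, 229 and 123 CPM in GIGYF1/2-null and 182 and 121 CPM in WT, a change of 2.68 ± 0.29 (SE; edgeR adjusted p = 3.9e-04). NEFL, the light chain, had 24.6 and 23.8 CPM in 4EHP-null, 75.4 and 58.6 CPM in GIGYF1/2-null and 56.9 and 52.2 CPM in WT, a change of 1.47 ± 0.16 (SE; edgeR adjusted p = 4.1e-04). Both calls held, and the 4EHP-null libraries alone were low. CHGA (1.56 ± 0.41), the adhesion molecule NCAM1 (0.82 ± 0.15) and INA (0.71 ± 0.17, in a run of higher genes on chromosome 10) were the other increases. None fell by edgeR (2 at an unadjusted p under 0.05, 0 by DESeq2 and 0 by limma-voom), and the higher members numbered 3, 2, 3 and 4 in the fits that left out a library. NEFL, NEFM and INA are among the 8 HEK293T markers, whose summed level was 1536 to 1751 CPM in 4EHP-null, 1349 to 1953 CPM in GIGYF1/2-null and 1996 to 2436 CPM in WT. Most of that sum was VIM, with 1500 and 1296 CPM in 4EHP-null, 1384 and 951 CPM in GIGYF1/2-null and 1982 and 1620 CPM in WT. The sum thus says little about the other markers.

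Matrix and guidance genes moved both ways. Of 38 collagens and matrix genes, 11 fell (28.9%) and 5 rose (13.2%), beside 6.8% and 3.98% of all genes. The median was 0.00 (0.06 with upper-quartile and -0.01 with RLE scaling). SPOCK1, a matrix proteoglycan, had 0 and 0.136 CPM in 4EHP-null, 6.43 and 7.96 CPM in GIGYF1/2-null and 3.33 and 2.46 CPM in WT. It had 1 count in all in 4EHP-null, and the scaled ratio of counts was 100.1 (95% exact counting interval 17.7 to 3982). LOX, which cross-links collagen, rose by 1.10 ± 0.19 (SE; edgeR adjusted p = 0.0050, but 0.062 without 4EHP-null 1). COL12A1 (1.42 ± 0.31), COL2A1 (0.59 ± 0.16) and COL18A1 (0.56 ± 0.16) rose as well. The decreases beside COL3A1 were SPARC (-1.11 ± 0.18, held), LAMB1 (-0.99 ± 0.13, held, in the chromosome 7 run), COL14A1 (-0.92 ± 0.19), LAMA5 (-0.89 ± 0.16), COL5A2 (-0.87 ± 0.20), LAMB2 (-0.71 ± 0.14), HSPG2 (-0.71 ± 0.19), AGRN (-0.66 ± 0.17), VCAN (-0.59 ± 0.15) and FN1 (-0.49 ± 0.14). Fibrillar and basement membrane chains thus stood on both sides. Higher members numbered 1, 4, 3 and 2 and lower members 7, 4, 9 and 7 in the fits that left out a library.

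Of 29 glypican, teneurin and guidance genes, 10 fell (34.5%) and 2 rose (6.9%), beside 6.8% and 3.98% of all genes. The median was -0.11. Beside GPC3 the decreases were its relative GPC6, with 29.6 and 35.3 CPM in 4EHP-null, 12.4 and 15.3 CPM in GIGYF1/2-null and 21.9 and 23.8 CPM in WT (a change that held, in the chromosome 13 run), and 8 receptors and ligands of axon guidance. GPC6 changed by -1.22 ± 0.17 (SE; edgeR adjusted p = 0.0013). These were ROBO2 (-1.67 ± 0.35), SEMA3C (-1.41 ± 0.29), EPHA3 (-1.15 ± 0.19, held), SEMA3A (-1.09 ± 0.26), NRP1 (-0.74 ± 0.15), TENM3 (-0.73 ± 0.16), EPHA7 (-0.53 ± 0.14) and ROBO1 (-0.45 ± 0.13). NRXN3 (0.81 ± 0.19) and TENM1 rose; TENM1 had 0.315 and 0.136 CPM in 4EHP-null, 1.46 and 0.885 CPM in GIGYF1/2-null and 11.6 and 12 CPM in WT, with a scaled ratio of counts of 5.14 (1.54 to 26.8). Both null lines were thus far below WT for TENM1. Higher members numbered 0, 0, 1 and 2 and lower members 5, 3, 8 and 9 in the fits that left out a library.

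Targets of Wnt and of TGF-beta and BMP signalling had more increases than decreases. Of 18 Wnt targets, 4 rose (22.2%, beside 3.98% of all genes) and 1 fell (5.56%, beside 6.8%). The 4 included SFRP1 and CCND1, already described, with the stem cell receptor LGR5 (1.15 ± 0.31) and MYC. MYC had 88 and 98.2 CPM in 4EHP-null, 206 and 169 CPM in GIGYF1/2-null and 122 and 126 CPM in WT, a change of 1.01 ± 0.14 (SE; edgeR adjusted p = 0.0015) that held. TNFRSF19 fell (-1.61 ± 0.28, held, in the chromosome 13 run). Of 21 TGF-beta and BMP targets, 5 rose (23.8%) and 2 fell (9.52%), beside 3.98% and 6.8% of all genes. ID2, an inhibitor of bHLH factors, had 107 and 103 CPM in 4EHP-null, 179 and 176 CPM in GIGYF1/2-null and 127 and 123 CPM in WT, with a change of 0.75 ± 0.12 (SE; edgeR adjusted p = 0.0035), and held. BAMBI (0.94 ± 0.17), ID3 (0.89 ± 0.15), SMAD6 (0.82 ± 0.24) and ID1 (0.79 ± 0.17) rose, and LTBP1 (-0.73 ± 0.14) and INHBE (-1.36 ± 0.34) fell. The higher members of the BMP list numbered 1, 5, 4 and 4 and those of the Wnt list 3, 3, 4 and 3 in the fits that left out a library.

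The lists that follow had few calls each, and their shares are read beside 3.98% higher and 6.8% lower of all genes. Of 32 immediate early genes, 3 rose (9.38%) and 2 fell (6.25%). KLF4, a reprogramming factor, had 0.63 and 0.818 CPM in 4EHP-null, 2.67 and 2.65 CPM in GIGYF1/2-null and 1.01 and 1.32 CPM in WT, with a change of 1.85 ± 0.42 (SE; edgeR adjusted p = 0.016, but 0.073 to 0.14 without 1 of 4EHP-null 1, 4EHP-null 2 or GIGYF1/2-null 2). ARC (1.75 ± 0.44) was the third increase beside MYC. DUSP2, a phosphatase of ERK, had 1.57 and 2.04 CPM in 4EHP-null, 0 and 0.265 CPM in GIGYF1/2-null and 0.869 and 0.662 CPM in WT, with a scaled ratio of counts, here 4EHP-null over GIGYF1/2-null, of 11.9 (95% exact counting interval 3.63 to 61.6), and CYR61 (-0.59 ± 0.14) was the other decrease. Of 33 glycolysis and hypoxia genes, NDRG1 (0.66 ± 0.14), EGLN1 (0.61 ± 0.16) and BNIP3 (0.61 ± 0.14) rose (9.09%). The hexokinase HK2 (-0.74 ± 0.14) fell (3.03%), and the median of the list was -0.12. Of 15 mesenchymal genes, the transcription factors PRRX1 (2.30 ± 0.43) and TWIST2 (1.42 ± 0.37) rose (13.3%). TAGLN (-1.85 ± 0.52), ZEB2 (-0.90 ± 0.23) and FN1 fell (20%). Of 9 epithelial genes, 1 fell (11.1%), the desmosomal PKP2 (-0.59 ± 0.15). Of 10 polyamine genes, 2 rose, which were SAT1, the enzyme that acetylates spermidine, with a change of 1.03 ± 0.20 (SE; edgeR adjusted p = 0.0090, but 0.078 without 4EHP-null 2), and spermidine synthase, SRM, with a change of 0.56 ± 0.15 (SE; edgeR adjusted p = 0.032, but 0.055 to 0.25 without 1 of 4EHP-null 1, GIGYF1/2-null 2, WT 1 or WT 2). The 2 polyamine increases were 20% of that list. Of 20 mRNAs with a 5′ TOP motif that encode no ribosomal protein, 1 fell (5%), PABPC1 again. Of 35 proteasome subunits, 1 fell (2.86%), PSMC2 (-0.49 ± 0.13), which lies in the chromosome 7 run. In the fits that left out a library, higher and lower members numbered 1, 1, 2 and 2 and 0, 0, 2 and 1 for the immediate early genes, 0, 1, 1 and 3 and 1, 1, 4 and 2 for glycolysis and hypoxia, and 0, 1, 1 and 2 and 0, 1, 3 and 0 for the mesenchymal genes. The epithelial decreases numbered 0, 0, 2 and 0, the polyamine increases 1, 1, 2 and 2, the 5′ TOP decreases 0, 2, 2 and 1 and the proteasome decreases 0, 0, 1 and 1.

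Of 476 zinc finger genes of the ZNF family, 8 rose (1.68%) and 22 fell (4.62%), both shares below those of all genes, with 4, 30, 28 and 5 lower in the fits that left out a library. Of the lower ones, ZNF92 had 75.9 and 51.9 CPM in 4EHP-null, 29.8 and 22 CPM in GIGYF1/2-null and 34.8 and 34.6 CPM in WT, with a change of -1.31 ± 0.20 (SE; edgeR adjusted p = 0.0025), and of the higher ones ZNF503 changed by 1.3 ± 0.15 (SE; edgeR adjusted p = 4.7e-04) within a run on chromosome 10. Of 4 leukocyte genes and of 28 clustered protocadherins, edgeR called 0, as did DESeq2 and limma-voom; 0 and 1 of them passed an unadjusted p under 0.05. The protocadherins, which share reads, had 26 of 28 values above 0 and a median of 0.42.

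**Figure D3:**
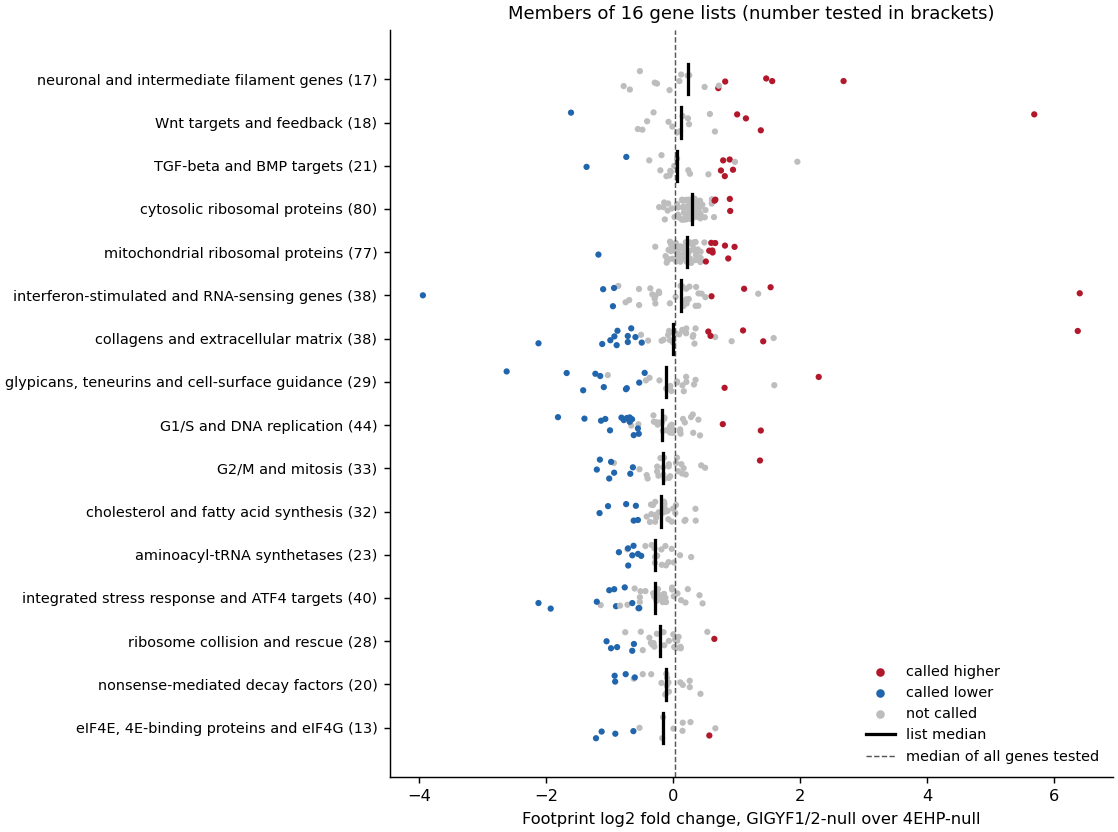
Footprint log2 fold change, GIGYF1/2-null over 4EHP-null (x axis), of each tested member of 16 gene lists (rows), with called members in colour; the thick bar is the median of the list and the dashed line the median of all genes, 0.03. The medians of the ATF4 and synthetase lists both lie at -0.28 and that of the cytosolic ribosomal proteins at 0.29.

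Ribosomal protein genes lay slightly above 0 as a group. Of 80 cytosolic ribosomal proteins, 73 lay above 0 with a median of 0.29, but 4 rose past the threshold (5%, near the 3.98% of all genes), and 35 did at an unadjusted p under 0.05. DESeq2 called 11, limma-voom 10 and upper-quartile scaling 11. RPL36A had 1022 and 728 CPM in 4EHP-null, 1784 and 1467 CPM in GIGYF1/2-null and 1519 and 1312 CPM in WT, a change of 0.89 ± 0.19 (SE; edgeR adjusted p = 0.012, but 0.084 without 4EHP-null 2). RPLP1 had 803 and 858 CPM in 4EHP-null, 1355 and 1260.2 CPM in GIGYF1/2-null and 1250.2 and 1101 CPM in WT, a change of 0.65 ± 0.15 (SE; edgeR adjusted p = 0.015, but 0.10 without 4EHP-null 1 and 0.054 without 4EHP-null 2). Both null lines were apart, and 4EHP-null lay below WT. RPL41 (0.90 ± 0.22) was also called. Such genes have near-identical copies that can share reads. The number of calls was 4, 0, 4 and 7 in the fits that left out a library. None fell by edgeR (0 at an unadjusted p under 0.05, 0 by DESeq2 and 0 by limma-voom). Of 77 mitochondrial ribosomal proteins, 9 rose (11.7%) and 1 fell, with a median of 0.21, and of 80 nuclear-encoded oxidative phosphorylation genes 6 rose (7.5%) and 2 fell, with a median of 0.19. In the fits that left out a library, 4, 4, 5 and 8 mitochondrial ribosomal proteins were called higher, and 1, 1, 4 and 6 oxidative phosphorylation genes were called higher and 0, 1, 3 and 0 lower. Of the mitochondrial ribosomal proteins that rose, 5 of the 9 lie in runs of neighbours, as do COX5A (0.68 ± 0.13) and NDUFB8 (0.68 ± 0.13) of the oxidative phosphorylation genes. Without the genes in runs, 3 mitochondrial ribosomal proteins and 2 oxidative phosphorylation genes were called higher. MRPL12 rose by 0.97 ± 0.13 (SE; edgeR adjusted p = 0.0015) in a run on chromosome 17 and MRPL55 by 0.87 ± 0.14 (SE; edgeR adjusted p = 0.0029) in a run on chromosome 1. MRPS31, the 1 decrease, changed by -1.17 ± 0.15 (SE; edgeR adjusted p = 0.0011) in the chromosome 13 run, and these 3 calls held. Of the oxidative phosphorylation genes, the decreases were NDUFS1 (-0.51 ± 0.12) and UQCRC2 (-0.50 ± 0.14).

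The direction of change went with the length that the deposited table gives for a gene. In genes with an average log2 CPM of at least 4, split by length into 5 groups of equal size, the median footprint change was 0.15 in the group of the shortest genes (49 to 1839 bases) and -0.13 in the longest (5794 to 91671 bases). Genes called lower made up 3.68% of the shortest and 14.9% of the longest, and genes called higher 7.78% and 2.53%. The mRNA medians were 0.11 and -0.13 in the same groups. The part of length in the results for gene lists was not tested.

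**Figure D4:**
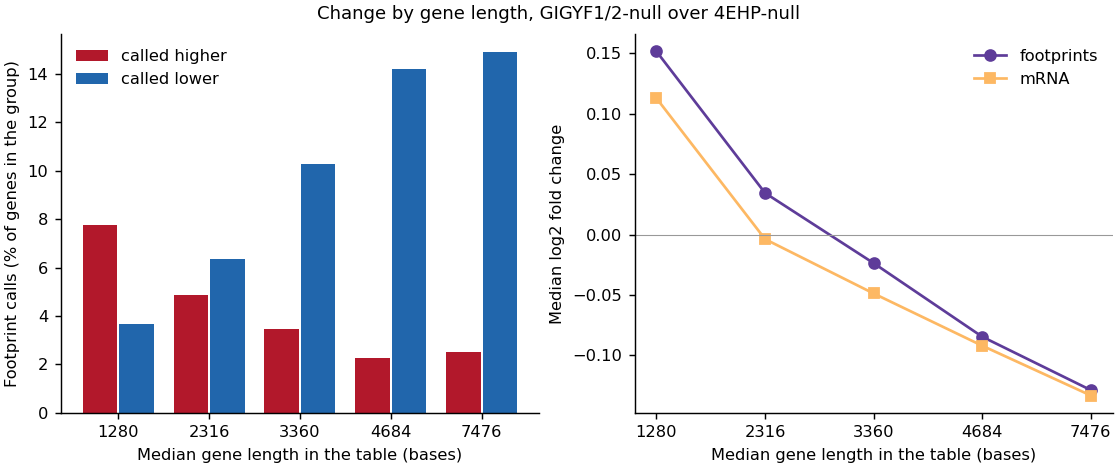
Left, percent of genes called higher (first bar) and lower (second bar) in GIGYF1/2-null footprints in each of 5 groups of genes by length; right, median log2 fold change of footprints and mRNA in the same groups. The share called lower climbs from 3.68% to 14.9% and both medians fall from above 0 to below 0.

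The called genes were also unevenly spread over the chromosomes. Gene order from the RefSeq table (GRCh38.p14), used only to find neighbours, placed 14340 of the tested genes (97.4%). Along it, a running median over 25 genes stayed at or past 0.3 on either side for at least 10 genes in 19 runs. Genes nearest to the ends of a chromosome had no full window and could not enter a run. A gene outside the runs may thus still have changed with its neighbours. The runs held 1198 tested genes, of which 28.1% were called (123 higher and 214 lower), beside 9.24% of the 13524 genes outside them. Because the runs were picked by these same footprint changes, a larger share inside them was set by the choice. The longest run, ZDHHC20 to TM9SF2 on chromosome 13, had 75 of 209 genes lower and 2 higher, with a median of -0.47 in footprints and -0.61 in mRNA. Over chromosome 13 as a whole, 31.9% of 276 genes were called lower, beside 6.8% of all genes. In that run the median of GIGYF1/2-null over WT was -0.54 and that of 4EHP-null over WT 0.05, so that the GIGYF1/2-null libraries were the low ones.

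The other large runs were of both kinds. PLOD3 to SLC37A3 on chromosome 7 had 46 of 163 genes lower, TUBE1 to PCMT1 on chromosome 6 had 29 of 125, and KDM4C to SMU1 on chromosome 9 had 19 of 47. The medians of GIGYF1/2-null over WT there were -0.49, -0.41 and -0.48, while those of 4EHP-null over WT lay between -0.05 and 0.07. ADPGK to ZNF710 on chromosome 15 had 30 of 131 genes higher, and 6 runs on chromosome 10 from DNA2 to GLRX3 were higher too. In the chromosome 15 run 4EHP-null was the low line, at -0.38 over WT, with GIGYF1/2-null at 0.01. HNRNPA3P1 to SGMS1-AS1 on chromosome 10 had 22 of 40 genes lower and the largest median, -1.05. There 4EHP-null was high, at 1.17 over WT. The medians of footprints and mRNA had the same sign in these runs.

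The X chromosome, which holds no run, carried 5 of the 12 largest increases (CHRDL1, BEX5, TSC22D3, PCDH19 and GLA) and 2 of the 12 largest decreases (SYTL5 and GPC3). Of its 527 tested genes, 16.9% were called, beside 10.8% of all genes. The 51 higher ones were 9.68%, beside 3.98% of all genes, and the 38 lower ones were 7.21%, near the 6.8% of all genes. In the fit without the genes in runs, added after the data were seen, 385 genes were called higher and 716 lower.

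**Figure D5:**
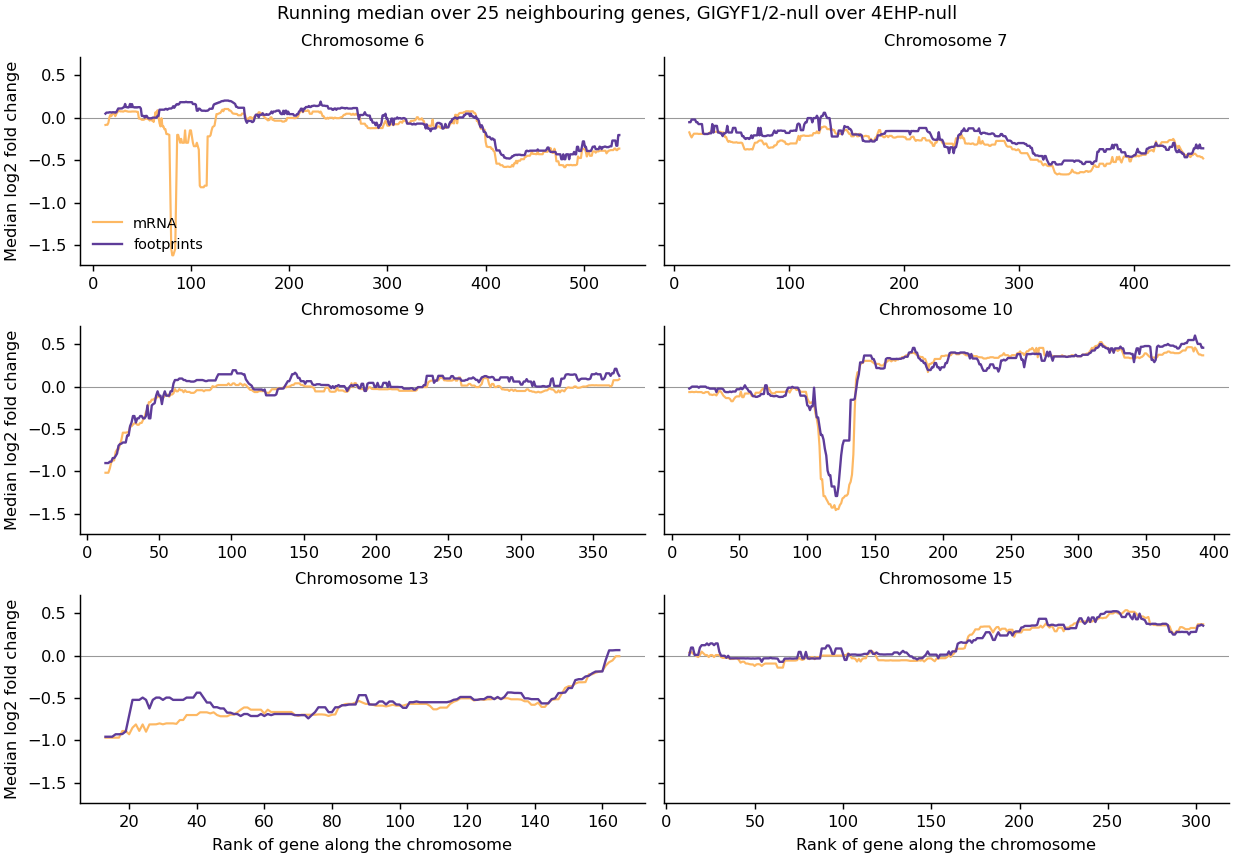
Running median over 25 neighbouring genes of the log2 fold change of footprints and of mRNA, GIGYF1/2-null over 4EHP-null (y axis), against the rank of the gene along 6 chromosomes (x axis). Footprints lie below 0 over most of chromosome 13, the later part of chromosome 7, the end of chromosome 6 and the start of chromosome 9, and above 0 over the later parts of chromosomes 10 and 15. The mRNA line follows apart from 2 dips early on chromosome 6 and a stretch of chromosome 10 where it lies lower. At ASAH2B in that stretch the medians are -0.15 in footprints and -1.12 in mRNA.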

How the data were processed

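Ribo-seq and RNA-seq libraries of WT, 4EHP-null and GIGYF1/2-null HEK293T cells, 2 per genotype and assay, were grouped by their labels. The authors deposited raw read counts per gene in 1 table per assay, with no normalization. Per the submitters' processing notes, Bowtie2, TopHat2, edgeR and hg19 were used. The counting tool, the annotation and the use of strand were not given in the sources used here. Genes that overlap, also on opposite strands, may therefore share reads. The deposited gene lengths and counts were used as given, and the authors' own comparisons were not used here.

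Counts of all 6 libraries of an assay were fitted together with edgeR 4.0.16 (R 4.3.3): genes with low counts were removed by filterByExpr, libraries scaled by TMM, and GIGYF1/2-null tested against 4EHP-null by the quasi-likelihood test, adjusted by Benjamini-Hochberg over all genes tested, at 0.05. Translation efficiency was the interaction of assay and genotype over 12 libraries. The fits were tested on simulated data. CPM values were computed from the counts. DESeq2 1.42.0 and limma 3.58.1 (voom) were alternatives, as were other scalings and filters, the knockouts alone, a replicate block and leaving out each library. Intervals on counts are exact at 95% and cover counting error only; depth is in the opening paragraphs. Promoter stretches come from RefSeq (GRCh38.p14), whose table was otherwise used for gene order only.

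The comparison and its gene lists were chosen with earlier results of these data known. Named genes are those targeted and ZNF598, the 12 called genes per direction with the largest change at an average log2 CPM of at least 2 without overlap of the null lines (non-coding and uncharacterised symbols passed over), the 4 per direction in translation efficiency at that level in both assays, and the 2 called members per direction of each list with the smallest adjusted p. The other members named are called members of their list, and EIF4G1, PABPC1 in translation efficiency, CTC1 and LARS were singled out after their values were seen. The definition of runs of neighbouring genes (log2 CPM of at least 3) and the fits without them, and with genes of identical counts taken once, were also chosen after seeing the data. A few named genes are not reported here.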

Additional observations from a re-analysis of the deposited data

How the results depend on the processing

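The 1587 footprint calls became 1553 with RLE scaling, 1660 with upper-quartile scaling, 1458 with at least 1 CPM in every library, 1608 with limma-voom, 1304 with the knockouts alone, 1605 with identical genes counted once, 2405 without the filter and 573 at 2-fold. Higher calls numbered 965 without the filter, 319 with DESeq2 and 385 without genes in runs. Leaving out each library gave 431 to 1659 calls (130 to 467 higher, 301 to 1205 lower), 2238 to 3756 in mRNA and 7 to 50 in translation efficiency. The 24 translation efficiency calls became 3 with at least 1 CPM in every library, 37 with DESeq2 and 14 with the knockouts alone. With 2 pairs the replicate numbers do not establish a pairing; same-numbered deviations correlated at 0.149 to 0.314 in Ribo-seq and 0.0701 to 0.180 in RNA-seq. The replicate block gave 3291 footprint calls (1422 higher and 1869 lower), 5362 in mRNA and 114 in translation efficiency. It also called GIGYF2 footprints lower (adjusted p = 2.4e-04), as did the fits without the filter and without GIGYF1/2-null replicate 1 (0.012). The 114 named genes include some without a footprint call, such as GIGYF2 and ZNF598. DESeq2 gave an adjusted p for 108 of the 114, and among these 12 lost the call and 0 changed direction. The rest had no DESeq2 adjusted p and so no DESeq2 call. Many lost it when 1 library was left out, most often 4EHP-null replicate 1. The cause of these shifts was not tested. The number of libraries, 2 per genotype, and low counts limit what could be called.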
